A study of Dichomitus squalens with 6 samples.

Results

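A set of 145 genes of the white-rot fungus Dichomitus squalens stood at low levels in mycelium grown on xylose and at higher, similar levels on L-rhamnose and on cellobiose. They were chosen among 15295 gene models by their own expression values. Each model has at least 2 exons, a coding length above 400 bases and whole-number counts in all 6 libraries, and lies outside scaffolds 52, 68 and 77. The mean of FPKM + 1 had to be at least 10 on L-rhamnose and on cellobiose, at least 2 times the xylose mean on each of them, and less than 2-fold different between these 2 sugars. Both xylose libraries had to lie below the 4 other libraries. FPKM is the number of fragments on a gene divided by its length and by the size of the library. The difference from xylose and the likeness of the other 2 sugars were thus set by the choice of genes and are given here as a description, with no test of either.

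The strain is CBS 464.89, monokaryotic and labelled wild type, and every library comes from it. Mycelium grew for 5 days at 28 °C on 1.5% agar with a low-nitrogen medium that holds asparagine and succinate, and with 25 mM of xylose, L-rhamnose or cellobiose. There were 2 libraries per sugar, of total RNA. A plate with none of the 3 sugars is not among the libraries used, so a gene low on xylose cannot be told apart from one raised by both other sugars. Whether the 2 replicates were separate cultures is not stated in the labels, so spread between them may be technical. In bulk mycelium, fewer cells expressing a gene and less RNA of it per cell cannot be told apart either.

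Wood-rotting fungi meet these sugars as breakdown products of the plant cell wall: xylose from xylan, L-rhamnose from pectin and cellobiose from cellulose. Xylose enters metabolism through the pentose catabolic pathway and the pentose phosphate pathway. Cellobiose is split to glucose, which feeds glycolysis, and fungi break down L-rhamnose by a pathway of its own. In the ascomycete Aspergillus niger, xylose is also a signal that turns on genes of xylan breakdown. The gene models of this strain carry identifiers and positions, and the files do not pair them with product names, so the 145 genes are described by level, structure and place and no function is given to any of them.

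Expected counts per library totalled 7306517 to 8126006. The 145 genes together took 0.313% and 0.461% of all FPKM in the xylose libraries, against 1.56% and 1.51% on L-rhamnose and 1.67% and 2.07% on cellobiose. Their median level was 9.87 and 10.9 FPKM in the xylose libraries, against 43.2 and 41.8 FPKM on L-rhamnose and 42.3 and 31.9 FPKM on cellobiose. The 7257 models that met the parts of the rule on structure, whole counts, scaffold and level had median levels of 36.5 to 39.4 FPKM in the 6 libraries. The members were therefore near the middle of those models on L-rhamnose and cellobiose and well under it on xylose.

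**Figure D1:**
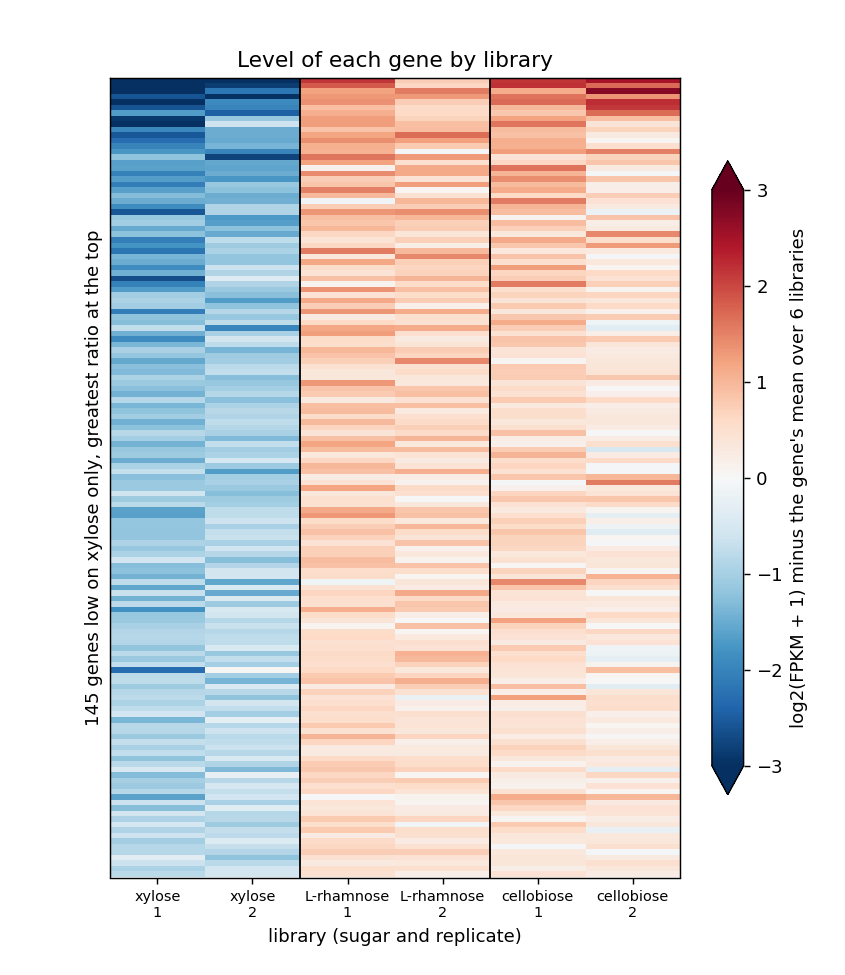
Each row is 1 of the 145 genes and each column 1 library, and the colour is log2(FPKM + 1) minus the gene's mean over the 6 libraries, with the colour scale ending at 3 in each direction. Rows run from the greatest ratio of the lower of the L-rhamnose and cellobiose means to the xylose mean, 40.4, at the top, to 2.01 at the bottom; the deepest blue fields sit in the xylose columns of the top rows.

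Most of the genes differed from xylose by little more than the rule asks. The ratio of the lower of the L-rhamnose and cellobiose means to the xylose mean had a median of 2.55 and ranged from 2.01 to 40.4. It was between 2 and 3 for 103 genes, 22 of which were under 2.1, between 3 and 5 for 26, between 5 and 10 for 11 and at 10 or more for 5. For 75 genes every L-rhamnose and cellobiose library stood at least 2 times above both xylose libraries. For 12 genes the lowest of those 4 libraries was less than 1.5 times the highest xylose library. None was without reads on xylose. Both xylose libraries were under 10 FPKM for 62 genes and under 5 FPKM for 15. The lowest count of any member was 4 reads, in a xylose library. Averaged over the L-rhamnose and cellobiose libraries, 2 genes stood at 1000 FPKM or more, 31 between 100 and 1000, 75 between 20 and 100, and 37 under 20.

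The most abundant member was gene_14140, an 8-exon model with 471 coding bases on scaffold 75 (141774 to 142900, minus strand). It stood at 67.1 and 328 FPKM in the xylose libraries, against 3430.1 and 4366 FPKM on L-rhamnose and 3226 and 9766 FPKM on cellobiose. Both xylose libraries lay far below the others, while the 2 libraries of xylose and the 2 of cellobiose were themselves wide apart. The fitted log2 fold change was -4.17 ± 0.84 (SE) for xylose minus L-rhamnose and -4.93 ± 0.87 for xylose minus cellobiose, from an edgeR fit of all genes. This gene made up 44.8% of the members' summed FPKM in cellobiose replicate 2 and 18.3% in cellobiose replicate 1, against 2.17% and 6.92% in the xylose libraries, so the summed shares above depend on it.

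Next in level was gene_11145, a 3-exon model with 666 coding bases on scaffold 56 (182371 to 183303, plus strand). It stood at 425 and 1098 FPKM on xylose, against 2363 and 1942 FPKM on L-rhamnose and 2888 and 2790.3 FPKM on cellobiose. It remained among the abundant genes on xylose, and its log2 fold changes were -1.36 ± 0.41 against L-rhamnose and -1.79 ± 0.42 against cellobiose. The 6-exon model gene_9751, with 660 coding bases on scaffold 42 (80449 to 81626, minus strand), stood at 35.2 and 279 FPKM on xylose, against 1017 and 802 FPKM on L-rhamnose and 1307 and 561 FPKM on cellobiose. Its xylose libraries were a greater fold apart than the means of xylose and L-rhamnose, and the log2 fold changes of -2.40 ± 0.85 and -2.47 ± 0.85 have the wide errors that go with it.

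The 2-exon model gene_12879, with 675 coding bases on scaffold 79 (19457 to 20607), stood at 160.5 and 162 FPKM on xylose, against 800.0 and 525 FPKM on L-rhamnose and 380.1 and 439 FPKM on cellobiose. Its xylose libraries were nearly equal. Its annotated span overlaps that of a neighbour, while the span of its coding parts overlaps that of no other model. The 23-exon model gene_3219, with 1101 coding bases on scaffold 8 (204624 to 207518, minus strand), stood at 125 and 189 FPKM on xylose, against 405 and 317 FPKM on L-rhamnose and 344 and 418 FPKM on cellobiose. With gene_15761 on scaffold 108 it has the most exons of the set. The 6-exon model gene_5059, with 1335 coding bases on scaffold 12 (226231 to 227839), stood at 61.6 and 144 FPKM on xylose, against 330 and 357 FPKM on L-rhamnose and 543 and 236 FPKM on cellobiose. For these 3 genes the log2 fold changes from either sugar lay between -1.89 and -1.06.

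**Figure D2:**
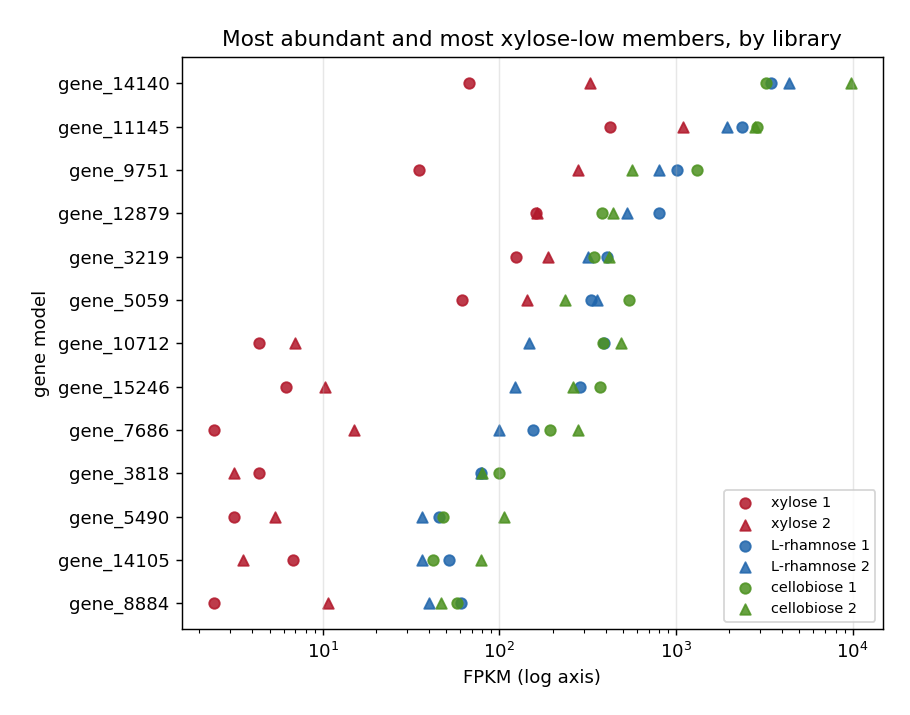
FPKM (log axis) of 13 members in each of the 6 libraries, by sugar (colour) and replicate (circle for replicate 1, triangle for replicate 2): the 8 with the highest mean on L-rhamnose and cellobiose and the 8 with the greatest ratio to xylose, 3 of which are in both lists. The xylose points are left of all others in each row; their own spread is widest for gene_14140, gene_9751 and gene_7686.

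The greatest ratio was that of gene_10712, a 4-exon model with 501 coding bases on scaffold 37 (136004 to 137051, minus strand), with annotated UTRs at both ends. It stood at 4.34 and 7.01 FPKM on xylose, which rest on 17 and 27 reads, against 390 and 146 FPKM on L-rhamnose and 386 and 490 FPKM on cellobiose. The lowest of the 4 other libraries was 20.9 times the highest xylose library, the widest such gap in the set. Its log2 fold changes were -5.41 ± 0.54 against L-rhamnose and -6.15 ± 0.55 against cellobiose. The 13-exon model gene_15246, with 1458 coding bases on scaffold 103 (96482 to 98814, minus strand), stood at 6.18 and 10.3 FPKM on xylose, against 287 and 123 FPKM on L-rhamnose and 370 and 262 FPKM on cellobiose. Its log2 fold changes were -4.49 ± 0.48 and -5.14 ± 0.49 against the same sugars.

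The 4-exon model gene_3818, with 687 coding bases on scaffold 9 (117854 to 119001, plus strand), was the most even of the strongly changed genes. It stood at 4.38 and 3.15 FPKM on xylose, against 78.5 and 79.2 FPKM on L-rhamnose and 99.7 and 80.3 FPKM on cellobiose. Replicates lay close together on every sugar, and the log2 fold changes were -4.24 ± 0.26 against L-rhamnose and -4.45 ± 0.26 against cellobiose. The 8-exon model gene_7686, with 1506 coding bases on scaffold 27 (166797 to 168899), stood at 2.42 and 15.0 FPKM on xylose, against 155 and 99.5 FPKM on L-rhamnose and 193 and 277 FPKM on cellobiose. Its xylose libraries were several-fold apart, though both stayed well below the rest.

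The list of the 8 greatest ratios also holds gene_14105 and gene_8884. The 4-exon model gene_14105, with 687 coding bases on scaffold 75 (62830 to 63711), stood at 6.75 and 3.52 FPKM on xylose, against 51.7 and 36.4 FPKM on L-rhamnose and 42.3 and 78.2 FPKM on cellobiose. The 2-exon model gene_8884, with 429 coding bases on scaffold 38 (130713 to 131199, minus strand), stood at 2.42 and 10.8 FPKM on xylose, against 60.5 and 39.8 FPKM on L-rhamnose and 57.8 and 46.8 FPKM on cellobiose. Their L-rhamnose and cellobiose libraries overlapped in range.

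In the fit of all genes with edgeR's quasi-likelihood test, 12667 genes were tested, all 145 members among them. Calls were made at a Benjamini-Hochberg adjusted p under 0.05 over all tested genes. Lower on xylose than on L-rhamnose were 132 of the 145 members, where 15.9% of all tested genes were called in this direction. Lower on xylose than on cellobiose were 78 members, where 2.55% of all tested genes were. In both comparisons, which share the xylose libraries, 74 members were called, against 1.58% of all tested genes. The genes were chosen on these differences in the same libraries, so the calls are no test of them and nothing is read from these counts. Without any 1 of the L-rhamnose or cellobiose libraries, each of these counts was lower, and so was each share of all tested genes. The members' median log2 fold change was then between -1.54 and -1.28 for xylose minus cellobiose. For xylose minus L-rhamnose it was between -1.60 and -1.57.

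All 145 fitted log2 fold changes were below 0 in both comparisons, as the rule fixes. For xylose minus L-rhamnose they ran from -5.41 to -0.91 with a median of -1.60 and a median SE of 0.30, beside a median of -0.01 over all tested genes. For xylose minus cellobiose they ran from -6.15 to -0.90 with a median of -1.40 and a median SE of 0.30, beside a median of 0.01 over all tested genes. The 58 members called only against L-rhamnose had a median log2 fold change of -1.56 against that sugar and of -1.21 against cellobiose. The 4 called only against cellobiose had medians of -1.15 against L-rhamnose and -1.97 against cellobiose. The 9 members called in neither comparison had medians of -1.14 against L-rhamnose and -1.28 against cellobiose, and their xylose replicates differed by a median of 0.91 on the log2 scale, against 0.33 for the members called in both. They include gene_9751, described above, and gene_2270 on scaffold 3, which stood at 20.3 and 105.3 FPKM on xylose, against 155 and 127 FPKM on L-rhamnose and 136 and 192 FPKM on cellobiose.

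On the scale of the deposited FPKM the median fold change over all tested genes was slightly negative. On log2(FPKM + 1), the median of all tested genes was -0.15 for xylose minus L-rhamnose and -0.11 for xylose minus cellobiose, a shift that the TMM library scaling of the edgeR fit takes out. When the rule was applied to counts per length scaled by TMM, 113 of the 145 genes met it, and no others did.

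Levels on L-rhamnose and cellobiose were not equal within the bound of the rule. The L-rhamnose mean was the higher for 90 members and the cellobiose mean for 55, and these means of FPKM + 1 were a median of 1.28-fold apart. Both L-rhamnose libraries lay above both cellobiose libraries for 51 members, and both lay below them for 22. In edgeR's test 3 members were called between L-rhamnose and cellobiose, where 22.0% of all tested genes were called. The rule keeps this difference small, and nothing is read from the count. Both the count and the share of all tested genes were higher without either xylose library. Both were lower without either L-rhamnose library or without cellobiose replicate 2. None of the 3 genes called with all libraries was called again without an L-rhamnose or a cellobiose library. Those 3 genes were gene_4790 on scaffold 13, gene_12599 on scaffold 78 and gene_13119 on scaffold 76. The 9-exon model gene_12599 stood at 10.1 and 7.97 FPKM on xylose, against 40.3 and 44.4 FPKM on L-rhamnose and 25.0 and 25.2 FPKM on cellobiose. The 10-exon model gene_13119 went the other way, at 30.4 and 36.4 FPKM on xylose, against 87.1 and 86.2 FPKM on L-rhamnose and 133 and 148 FPKM on cellobiose.

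The libraries of a sugar did not carry the set evenly. The library labelled xylose replicate 2 stood above xylose replicate 1 for 98 of the 145 members (67.6%), against 53.8% of the 7257 models of sufficient level. The xylose libraries were at least 2-fold apart for 21 members (14.5%), against 5.97% of those models. Replicate 2 was the higher for 19 of these members and the lower for 2, against 212 and 221 of those models. On L-rhamnose, replicate 2 was above replicate 1 for 51 members (35.2%, against 42.5% of those models), and 7 members (4.83%) were at least 2-fold apart, against 0.717%. On cellobiose it was above for 42 members (29.0%, against 49.1%), and 16 members (11.03%) were at least 2-fold apart, against 1.93% of those models. The rule chose the members on the values of these same libraries, which can shape such differences, so they are given as a description, with no test. The part of single libraries in the choice of genes can be seen when the rule is applied to 5 libraries and the left-out library is read afterwards.

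Leaving out xylose replicate 1, the rule chose 155 genes, and in that library 133 of them lay below all 4 L-rhamnose and cellobiose libraries and 98 (63.2%) were at least 2-fold lower than both means. Of the models that met the level and structure parts, 30.0% and 4.15% did so. Leaving out xylose replicate 2, it chose 227 genes, of which 200 lay on the low side in that library and 98 (43.2%) were at least 2-fold lower, against 24.9% and 2.76% of the models. Of the genes chosen without an L-rhamnose library, 119 of 132 (90.2%) and 118 of 146 (80.8%) stood at least 2-fold above the xylose mean in the left-out replicate 1 and replicate 2, against 10.7% and 9.75% of the models. For the left-out cellobiose libraries these numbers were 98 of 116 (84.5%) for replicate 1 and 108 of 196 (55.1%) for replicate 2, against 5.06% and 3.74% of the models. Over the 6 libraries the share on the same side ran from 85.8% to 100% and the share at least 2-fold apart from 43.2% to 90.2%. The left-out library was set against libraries that the choice itself made high or low, so part of these shares is built in, and the shares of all models are not what genes without a difference would give. They are given as a description, with no test.

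**Figure D3:**
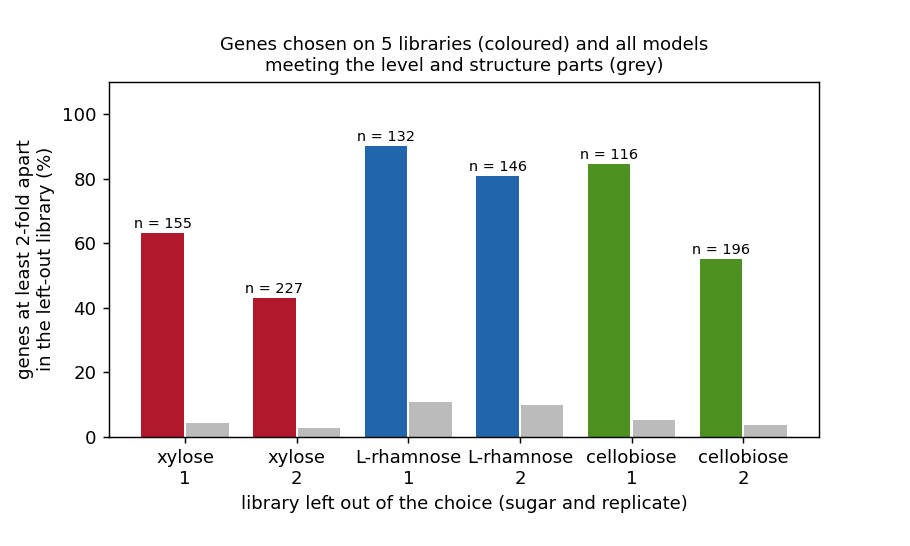
For each library left out of the choice, the coloured bar gives the percentage of the genes chosen on the other 5 libraries that were at least 2-fold lower (xylose) or higher (L-rhamnose, cellobiose) in it, with the number chosen above the bar, and the grey bar gives the same for all models meeting the level and structure parts of the rule. The coloured bars lie between 43.2% and 90.2% and the grey bars between 2.76% and 10.7%. Part of this difference is built in, since the left-out library is set against libraries on which the genes were chosen.

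Near the bounds of the rule, neighbouring genes fell on either side by small differences. In ratio the nearest member was gene_13530 on scaffold 63, at 2.01, with 8.98 and 10.9 FPKM on xylose, 23.0 and 19.0 on L-rhamnose and 22.3 and 19.5 on cellobiose. The nearest model outside was gene_12816 on scaffold 88, just under a ratio of 2, with 4.98 and 18.8 FPKM on xylose, 27.7 and 21.9 on L-rhamnose and 30.5 and 31.6 on cellobiose. For the fold between the other 2 sugars, gene_13112 on scaffold 76 was inside at 81.9 and 164 and gene_333 on scaffold 1 outside at 31.7 and 63.4, as means of FPKM + 1 on L-rhamnose and cellobiose. In level the lowest member was gene_17305 on scaffold 140, with a mean of FPKM + 1 of 10.7 on cellobiose, and gene_15023 on scaffold 112 was outside at 9.56. In coding length the bounds fell between gene_13000 at 411 bases and gene_2063 at 399 bases. In separation of single libraries, gene_12219 on scaffold 65 was inside with its lowest other library 1.10 times its highest xylose library, and gene_14223 on scaffold 87 was outside at 0.94.

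In structure the members were on the short side of comparable genes. Their median coding length was 984 bases (411 to 3141), against 1257 bases in the 7257 models of sufficient level and structure. The same rule with the sugars exchanged chose 321 genes low on L-rhamnose only, with a median of 1185 bases, and 51 genes low on cellobiose only, with a median of 1143 bases. The members had a median of 5 exons (2 to 23), against 6 in the comparable models, and 21 of them (14.5%) had 2 exons, against 9.47%. Their median intron was 60.5 bases, against 59 bases. A UTR was annotated for 91 members (62.8%), against 71.1%, 71.7% of the genes low on L-rhamnose only and 76.5% of those low on cellobiose only. Model spans overlapped a neighbour for 21 members (14.5%, against 23.2%), and the span of the coding parts for none. These shares are given without a test, since genes are no replicates of a condition.

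The members lay on 82 scaffolds, where the 7257 comparable models lie on 248 of the 406 scaffolds. On 50 of these scaffolds a single member was found. The largest number on 1 scaffold was 9, on scaffold 1, which holds 687 of the comparable models, so that 1.31% of them were members. Scaffold 3 held 8 of 227 (3.52%) and scaffold 13 held 6 of 111 (5.41%), beside 145 of 7257 in all, and scaffold 76 held 3 of 15. In 4 places 2 members were neighbours with no model between them, and 28 members had another member within 5 models. The same counts were not taken for other genes, so whether the members lie closer together than other genes was not tested.

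The adjacent members with the greatest ratio were gene_5490 and gene_5491 on scaffold 15, between 36754 and 42698, which are read towards each other with 1284 bases between them. The 8-exon model gene_5490 stood at 3.13 and 5.36 FPKM on xylose, against 45.4 and 36.3 FPKM on L-rhamnose and 47.9 and 107 FPKM on cellobiose. The 13-exon model gene_5491 stood at 1.56 and 1.17 FPKM on xylose, against 16.5 and 7.17 FPKM on L-rhamnose and 19.5 and 23.4 FPKM on cellobiose. Both had log2 fold changes of about the same size, -3.12 ± 0.44 and -2.95 ± 0.44 against L-rhamnose and -4.07 ± 0.46 and -3.84 ± 0.44 against cellobiose. The next models on either side, gene_5488 and gene_5492, had log2 fold changes of 0.82 and 0.54 against L-rhamnose and 0.07 and -0.12 against cellobiose.

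On scaffold 40, gene_9235 and gene_9236 are read away from each other, with 958 bases between them, between 151154 and 156324. The 11-exon model gene_9235 stood at 19.5 and 19.5 FPKM on xylose, against 58.2 and 41.8 FPKM on L-rhamnose and 73.7 and 74.9 FPKM on cellobiose. The 6-exon model gene_9236 stood at 6.42 and 5.62 FPKM on xylose, against 24.6 and 16.1 FPKM on L-rhamnose and 25.4 and 22.1 FPKM on cellobiose. The following gene_9237 did not share the pattern of the members and was higher on cellobiose only. It stood at 20.4 and 43.1 FPKM on xylose and 42.5 and 33.2 FPKM on L-rhamnose, which overlap, against 124 and 137 FPKM on cellobiose. The model after it, gene_9239, had log2 fold changes of -1.28 against L-rhamnose and -1.51 against cellobiose, at levels of 0.27 to 4.48 FPKM.

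On scaffold 141, gene_16871 and gene_16872 lie on the same strand with 61 bases between them, between 4431 and 6718. The 2-exon model gene_16871 stood at 2.62 and 5.59 FPKM on xylose, against 26.4 and 19.5 FPKM on L-rhamnose and 14.9 and 8.34 FPKM on cellobiose. The 5-exon model gene_16872 stood at 2.87 and 3.55 FPKM on xylose, against 15.6 and 15.3 FPKM on L-rhamnose and 12.6 and 8.20 FPKM on cellobiose. At so short a distance on 1 strand, whether reads of one model entered the count of the other was not tested. On scaffold 13, gene_4789 and gene_4790 are read towards each other with 688 bases between them, between 261222 and 264009. The 7-exon model gene_4789 stood at 4.38 and 9.73 FPKM on xylose, against 19.4 and 20.7 FPKM on L-rhamnose and 18.4 and 17.5 FPKM on cellobiose. The 2-exon model gene_4790 was the more abundant per length, at 77.2 and 49.4 FPKM on xylose, against 240 and 279 FPKM on L-rhamnose and 152 and 131 FPKM on cellobiose. Directly before these members, gene_4788 had log2 fold changes of -1.29 against L-rhamnose and -0.65 against cellobiose. Directly after them, gene_4792 had 0.24 and 0.28 against the same sugars.

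**Figure D4:**
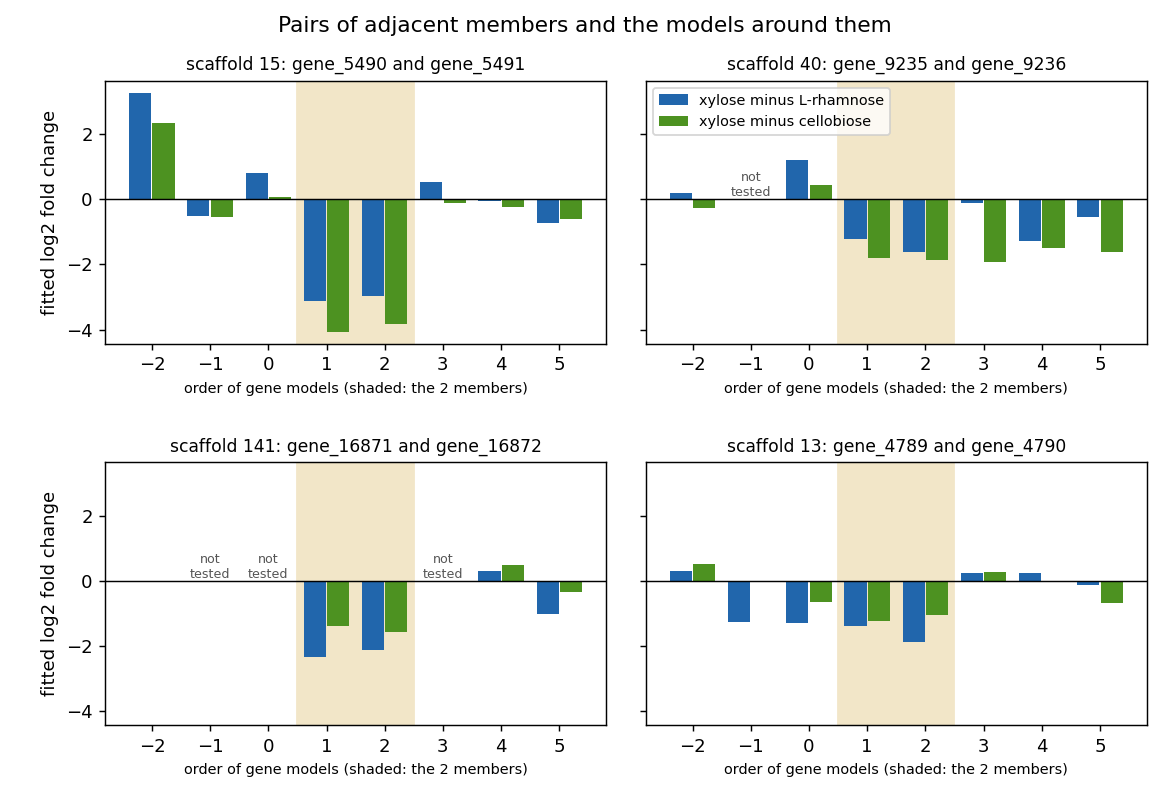
Fitted log2 fold changes of xylose minus L-rhamnose and xylose minus cellobiose for the 4 neighbouring sets of 2 members (shaded) and the models around them in their order along the scaffold, where the first member is 1. On scaffold 15 the models directly next to the members lie between -0.12 and 0.82. On scaffold 40 the model directly before the members stands at 1.20 against L-rhamnose and 0.43 against cellobiose. The model directly after them stands at -0.11 and -1.92 against the same sugars. On scaffold 13 the model directly before the members stands at -1.29 and -0.65, and the one directly after them at 0.24 and 0.28. On scaffold 141 the models directly next to the members were not tested.

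A model next to a member that met the rule is itself a member and is left out here. The models below, and the non-members they are set against, therefore all failed the rule, and the shares are given without a test. Of 276 models next to a member that were no members themselves, 234 were tested. Of these, 10 (4.27%) were called lower on xylose in both comparisons, against 126 of 12522 tested non-members (1.01%). Against cellobiose 15 (6.41%) were lower, against 1.96%, and against L-rhamnose 47 (20.1%), against 15.0%. Their median log2 fold changes were -0.20 for xylose minus L-rhamnose and -0.02 for xylose minus cellobiose, beside 0.00 and 0.01 over all tested non-members. Among the 10, 5 were on the same strand as the member and 5 were read away from it.

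One of these neighbours stood far above every member on L-rhamnose. On scaffold 315, gene_19164 lies 132 bases from the member gene_19165 and is read away from it. The neighbour gene_19164 stood at 237 and 610 FPKM on xylose, against 28720 and 25690 FPKM on L-rhamnose and 2205 and 2183 FPKM on cellobiose, and was no member because L-rhamnose and cellobiose differed too much. Its log2 fold changes were -5.87 ± 0.52 against L-rhamnose and -2.26 ± 0.44 against cellobiose. The 3-exon member gene_19165, at 4135 to 5114, stood at 5.01 and 6.97 FPKM on xylose, against 25.7 and 25.4 FPKM on L-rhamnose and 13.9 and 17.9 FPKM on cellobiose. On scaffold 75, gene_14106 lies 188 bases after gene_14105 on the same strand and stood at 3.65 and 2.37 FPKM on xylose, against 24.4 and 13.7 FPKM on L-rhamnose and 20.4 and 19.6 FPKM on cellobiose. It met every part of the rule except that its counts were not whole, which happens when reads are split among similar genes, and its level is uncertain. On scaffold 10, the single-exon gene_4438 lies 4 bases from gene_4439 on the same strand and stood at 98.1 and 88.6 FPKM on xylose, against 557 and 632 FPKM on L-rhamnose and 422 and 303 FPKM on cellobiose. The member gene_4439 stood at 48.2 and 54.5 FPKM on xylose, against 180.1 and 219 FPKM on L-rhamnose and 159 and 96.6 FPKM on cellobiose. For all the close neighbours named here, whether reads of one model entered the count of the other was not tested.

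A neighbour of the opposite pattern was found on scaffold 99, and was chosen after its values were seen. The 5-exon member gene_13413, with 2547 coding bases at 30876 to 33939, stood at 5.72 and 8.03 FPKM on xylose, against 45.4 and 47.7 FPKM on L-rhamnose and 48.4 and 39.8 FPKM on cellobiose. The next model along the scaffold, gene_13415, stood at 2909 and 7263 FPKM on xylose, against 354 and 187 FPKM on L-rhamnose and 81.5 and 129.8 FPKM on cellobiose. Directly before the member lies gene_13410, at 0.91 and 3.71 FPKM on xylose, against 3.03 and 2.23 FPKM on L-rhamnose and 2.16 and 3.12 FPKM on cellobiose. The model before that, gene_13409, stood at 2646 and 3143 FPKM on xylose, against 91.9 and 70.1 FPKM on L-rhamnose and 42.4 and 43.5 FPKM on cellobiose. The counts of gene_13409, gene_13410 and gene_13415 are not whole, so their levels are uncertain. The member had a model high on xylose next to it on one side and a low one on the other, and log2 fold changes of -2.62 ± 0.22 against L-rhamnose and -2.56 ± 0.22 against cellobiose.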

How the data were processed

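Per library, the authors deposited a table of coding length, RSEM expected count (an estimated read count) and FPKM. Per the submitters' processing notes, the tools were Bowtie2, HISAT and RSEM; the sources used here give no versions, genome build or use of strand. Genes not listed were taken as 0. Gene models come from the deposited JGI catalog, per the file headers; their summed coding parts equalled the deposited lengths in 100% of entries, so UTR bases add no length. A RefSeq table of 12497 genes of another strain matched 0 of the 15295 identifiers.

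The members and lists were chosen with earlier results of these data known. Expected counts were rounded to whole numbers; 12667 of 14443 genes passed filterByExpr and were fitted with edgeR 4.0.16 in R 4.3.3 (TMM, glmQLFit, glmQLFTest), 6 libraries in one fit without covariates, adjusted p under 0.05. The SE is the fold change divided by the root of F. The common biological coefficient of variation was 0.218. Between replicates, the chi-square of the counts divided by its degrees of freedom was 53.8 on xylose, 14.8 on L-rhamnose and 24.3 on cellobiose, so no replicate pair of a sugar looked like 1 library deposited again. Counts were taken as whole within 1e-06. Members named by rule are the 8 highest in level, the 8 greatest in ratio, adjacent members and those nearest to each bound; other genes are named beside the result that led to them, after their values were seen. Alternatives were DESeq2 1.42.0, limma 3.58.1 on log2(FPKM + 1) and log2(FPKM + 0.1), other scalings and filters, single libraries left out and other bounds.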

Additional observations from a re-analysis of the deposited data

How the results depend on the processing

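Under the other scalings and filter, DESeq2, limma, the replicate block and each library left out, all 145 fitted fold changes of both comparisons with xylose stayed below 0, as the rule fixes them. The number of genes meeting the rule was 387 at a minimum ratio of 1.5 and 42 at 3, and ran from 116 to 227 with 1 library left out, the highest without xylose replicate 2; with a pseudocount of 0.1, lower level bounds, TMM-scaled levels or genes with counts that are not whole kept it stayed between 113 and 194. With 1 library left out, which takes a remaining single library to vary as much as the others, members called lower on xylose ranged from 19 to 102 against cellobiose, from 58 to 133 against L-rhamnose and from 19 to 100 in both, and members called between L-rhamnose and cellobiose from 0 to 20. DESeq2 called 124 against cellobiose, 122 in both and 10 between L-rhamnose and cellobiose. A fit of only the 2 sugars called 27 against cellobiose and 19 between L-rhamnose and cellobiose. The labels number the replicates alike on each sugar, but with 2 numbers per sugar nothing shows that they pair the libraries, and replicate differences correlated between sugars across 7257 genes, which are not independent, at -0.116 to -0.302. With the replicate number as a block, 50 members were called against cellobiose (1.82% of all tested genes) and 48 in both (1.11%). Between L-rhamnose and cellobiose 1 was called (12.6%), which was none of the 3 called without the block. With a lowest member count of 4 reads and 2 libraries per sugar, the size of the change in the weakest genes is known only roughly.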

Other observations

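The bound on coding length left out many genes of the same pattern. Among multi-exon models of 400 coding bases or less with whole counts, outside scaffolds 52, 68 and 77, 50 of 703 with at least 10 on L-rhamnose and on cellobiose met the rest of the rule (7.11%), against 145 of 7257 above 400 bases (2.0%) and 10 of 247 single-exon models above 400 bases (4.05%). The greatest ratio among the short ones was 45.5, that of gene_7922, a 3-exon model with 339 coding bases at 43450 to 44293 on scaffold 32. It stood at 19.6 and 38.2 FPKM on xylose, against 1377 and 1345 FPKM on L-rhamnose and 1984 and 861 FPKM on cellobiose. Next was gene_17133, with 294 coding bases at 31392 to 32866 on scaffold 186, at 5.06 and 19.2 FPKM on xylose, against 416 and 152 FPKM on L-rhamnose and 292 and 589 FPKM on cellobiose. These genes were chosen by their values, and the shares are given without a test. Fewer reads fall on a short gene at the same FPKM, and the part of this in the higher share was not tested.

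On scaffold 103, the short model gene_15235, with 213 coding bases at 79076 to 79860, lies 999 bases from the member gene_15237 on the same strand. This short model stood at 5.36 and 9.55 FPKM on xylose, against 97.98 and 50.5 FPKM on L-rhamnose and 142 and 125 FPKM on cellobiose, while gene_15237 stood at 16.7 and 14.6 FPKM on xylose, against 85.1 and 59.3 FPKM on L-rhamnose and 65.5 and 72.1 FPKM on cellobiose. The second-greatest ratio of the set, that of gene_15246, lies on the same scaffold.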
